A study of Mus musculus with 7 samples.

Results

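The cells described here are Mex3a-expressing epithelial cells of mouse colon adenomas labelled wild type for Mex3a, as profiled on the 4 arrays with the genotype label WT out of 7 in the series; the other 3 carry the label KO. The arrays were chosen by that label alone, and no contrast with the KO arrays was made. The question is which lineage, Wnt, cell cycle and metabolic genes these cells express, and how far the 4 arrays differ. Mice of both labels carried a Tomato reporter in the Mex3a locus, the Villin CreERT2 transgene and an Apc allele flanked by loxP on 1 chromosome (APC fl/+). The second Mex3a allele was floxed (tom/flox) or wild type (Tom/+), so the WT label corresponds by its alleles to Tom/+, in which 1 Mex3a copy reports and the other stays intact. The Villin promoter drives Cre in the gut epithelium. Mice of both labels received 4 tamoxifen shots to recombine the floxed alleles and then drinking water with 2% of the colitis agent dextran sulfate sodium (DSS) for 5 days. According to the series design, adenomas were taken 2 months after DSS ended; the growth protocol counts the 2 months from induction. Adenomas were cut out and digested with collagenase IV, and cells positive for both Epcam, a surface protein of epithelium, and Tomato were sorted. RNA of 2000 cells was amplified for 24 cycles, and 8 µg of cDNA was hybridised per array. Age, sex and strain are not given in the labels, and nothing in them says that the 4 arrays came from 4 animals, so spread between arrays may be partly technical. Arrays 1 and 2 carry the label of scan batch 1, and arrays 3 and 4 that of scan batch 2. The numbers only name the arrays. Array 2 alone had Y-linked signal and had the lowest Xist level, as given below. The arrays thus did not all come from the same animal.

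MEX3A is an RNA-binding protein with KH domains that marks a slowly cycling fraction of the Lgr5-positive stem cells at the base of intestinal crypts. In that compartment Wnt signals keep beta-catenin stable, and beta-catenin with TCF/LEF factors switches on targets such as Lgr5 and Axin2. Without APC, a scaffold of the complex that destroys beta-catenin, this programme no longer needs the Wnt signal, and epithelium with both Apc copies lost grows into adenomas. The cells leaving the crypt base become absorptive colonocytes, mucus-making goblet cells, hormone-making enteroendocrine cells or chemosensory tuft cells.

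The promoters of 3 members are shown first, because the Wnt, cell cycle and marker results below refer back to them. Each is the 250 bases before the gene's RefSeq start on mouse build GRCm38.p6, read 5′ to 3′ on the gene's strand. Capitals mark CTTTGA, the core letters bound by TCF/LEF factors, in Sp5 (chr2:70474673-70474922, plus strand). In Mcm6 (chr1:128359706-128359955, minus strand) and Mex3a (chr3:88531696-88531945, plus strand) they mark TTGGCGC or TTCCCGC, letters bound by E2F factors, or the reverse complement GCGGGAA.
Sp5: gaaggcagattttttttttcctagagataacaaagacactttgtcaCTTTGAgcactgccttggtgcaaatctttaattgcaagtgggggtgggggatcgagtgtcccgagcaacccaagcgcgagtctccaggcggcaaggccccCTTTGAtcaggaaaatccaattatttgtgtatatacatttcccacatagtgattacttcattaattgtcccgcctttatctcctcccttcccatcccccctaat
Mcm6: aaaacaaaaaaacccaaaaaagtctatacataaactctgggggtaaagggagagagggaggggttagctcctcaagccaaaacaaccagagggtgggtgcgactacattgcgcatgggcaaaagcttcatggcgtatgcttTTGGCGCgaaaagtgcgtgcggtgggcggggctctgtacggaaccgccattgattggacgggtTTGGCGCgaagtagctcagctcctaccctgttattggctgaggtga
Mex3a: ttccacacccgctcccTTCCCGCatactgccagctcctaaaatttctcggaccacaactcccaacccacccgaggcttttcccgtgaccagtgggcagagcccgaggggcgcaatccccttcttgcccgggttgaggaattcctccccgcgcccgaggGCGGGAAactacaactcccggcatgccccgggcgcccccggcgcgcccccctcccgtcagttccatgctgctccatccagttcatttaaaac

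Each probe set has 1 deposited log2 level per array, normalized across the 7 arrays by RMA. For each gene the probe set of the highest mean over the WT arrays was kept, which gave 17097 genes with a median level of 6.70. A level is given below as the log2 value in arrays 1, 2, 3 and 4, in that order, with the mean ± SD over n = 4. A percentile is the rank of a gene's mean among the 17097 genes; it ranks the brightness of probe sets, which differ in affinity, so it does not order transcripts by abundance. As a yardstick, 55 genes of other organs (eye lens, sperm, liver, muscle, pituitary and others) had means from 3.92 to 9.01, and their 90th percentile, 6.78, served as the reference level. Over all genes, 7805 (45.7%) exceeded the reference level in all 4 arrays. This share is the background for every count of list members below. A gene under the level may still be expressed, since a weak probe set looks the same. The arrays were much alike: Pearson's r over genes ran from 0.991 to 0.996 in the 6 pairs, as a description over genes measured on arrays that share 1 normalization. The median gene had an SD of 0.121, and 157 genes (0.918%) had an SD above 0.5.

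All 4 markers of the sort and of the stem cell state exceeded the reference level in every WT array. Epcam stood at percentile 99.5, with levels of 11.96, 11.99, 11.94 and 11.87 (11.94 ± 0.05). Axin2, a target of beta-catenin that feeds back on the destruction complex, was at 10.80, 10.73, 10.86 and 10.73 (10.78 ± 0.06). Lgr5, the R-spondin receptor of crypt-base stem cells, was at 10.28, 9.71, 10.00 and 9.64 (9.91 ± 0.29). Epcam and Axin2 were nearly level across arrays, whereas Lgr5 was 1.56-fold brighter in array 1 than in array 4. Mex3a itself, whose promoter drove the sort, read only moderately bright at 7.41, 7.38, 7.50 and 7.01 (7.33 ± 0.22, percentile 59.8). Its second probe set gave 7.04, 6.59, 6.46 and 6.34, under the reference level in 3 of 4 arrays. Array 4 was the lowest with both Mex3a probe sets. The second probe sets of Lgr5 (7.69, 7.42, 7.16 and 7.14) and Axin2 (9.52, 9.64, 9.35 and 9.48) were dimmer than the kept ones but above the reference level in each array.

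**Figure D1:**
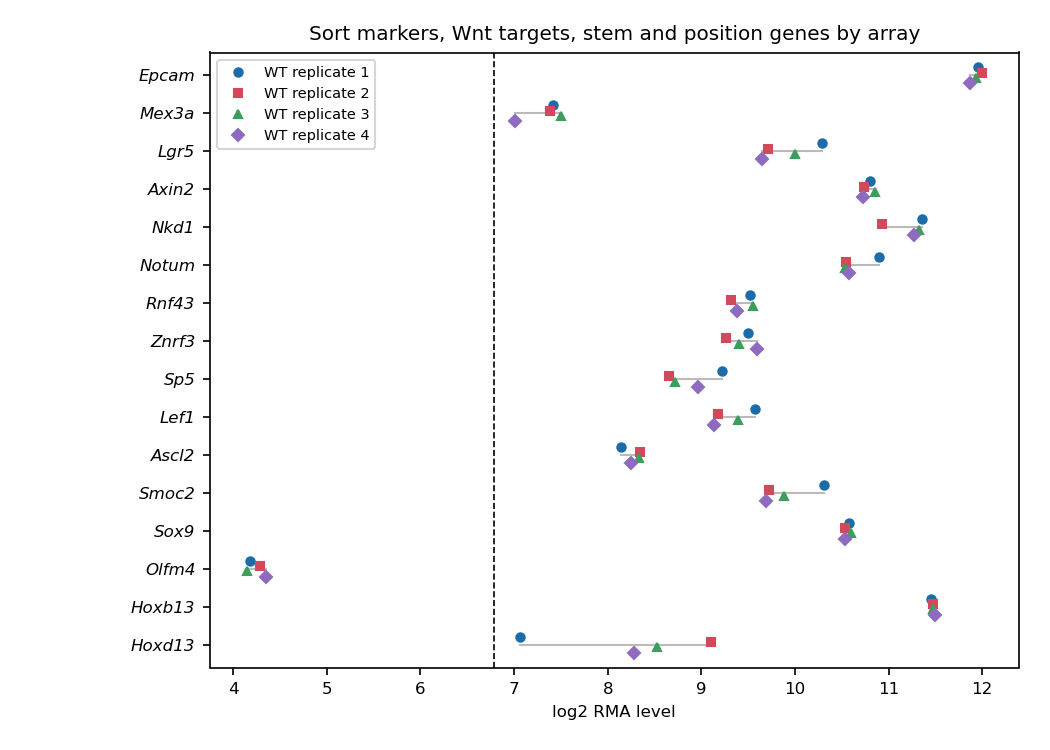
Log2 RMA level (horizontal axis) of 16 sort, Wnt, stem and position genes in each of the 4 WT arrays, 1 symbol per array. The grey bar spans the lowest to the highest array, and the dashed line is the reference level of 6.78. Olfm4 alone lies left of the line, Mex3a lies just right of it, and Hoxd13 has the widest spread.

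Genes of epithelial identity were bright almost throughout. Of 22 epithelial identity genes measured, 20 exceeded the reference level in all 4 arrays, against 45.7% of all genes. The median member stood at percentile 90.4 with a level of 9.77, against 6.70 over all genes. The keratins of simple epithelium were among the brightest: Krt8 averaged 11.76 ± 0.09, Krt18 11.77 ± 0.05 and Krt19 11.94 ± 0.16. The tight junction protein Cldn7 had the highest mean of the list, 12.30 ± 0.08, and the adhesion protein Cdh1 averaged 9.83 ± 0.05. Both exceptions were genes of maturing or intestinal epithelium. Krt20, a keratin of the differentiated surface, read 5.98, 7.00, 6.31 and 6.12, above the reference level only in array 2. Cdx2, a transcription factor of intestinal identity, read 6.90, 6.54, 6.87 and 6.83, close to that level throughout, whereas its relative Cdx1 reached 8.60, 8.88, 9.39 and 8.58.

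Position genes of the hindgut were bright and those of the small intestine mostly dim. Hoxb13, a homeobox gene of the most distal gut, was among the most even genes at 11.45, 11.48, 11.48 and 11.49 (11.47 ± 0.02, percentile 98.8). Hoxa13 averaged 9.18 ± 0.21, Hoxa10 8.58 ± 0.31 and Hoxd12 7.83 ± 0.39. Of 8 members of the colon and hindgut list, 6 exceeded the reference level in all arrays, Hoxd10 and Hoxa11 being the others. The Hoxd genes differed most between arrays. Hoxd13 read 7.06, 9.10, 8.53 and 8.28, so that array 2 was 4.11-fold brighter than array 1, and its second probe set kept array 1 lowest (7.38, 8.45, 8.51 and 8.23). Hoxd11 read 7.45, 9.00, 9.11 and 8.78, again lowest in array 1, and Hoxd12 read 7.29, 8.00, 8.20 and 7.84. Of 14 small intestine genes, 2 exceeded the reference level in all arrays. With the mean of all probe sets of a gene 1 did. The genes were the glucose transporter Slc5a1 (8.18 ± 0.26) and the brush border enzyme Mgam (8.77, 9.07, 8.61 and 7.67). The proximal factors Gata4 (5.18 ± 0.14) and Pdx1 (5.29 ± 0.03), the intestinal alkaline phosphatase Alpi (4.55 ± 0.05) and the chylomicron proteins Apoa4 (6.16 ± 0.05) and Apob (5.33 ± 0.17) stayed under it in each array.

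Genes of other cell types in the colon were mostly dim. Of 25 leukocyte genes 4 exceeded the reference level in all arrays, as did 3 of 17 genes of fibroblasts and smooth muscle, 1 of 12 of endothelium, 1 of 10 of enteric neurons and glia and 1 of 5 of erythroid cells. Over all genes 45.7% did. The defining markers of leukocytes lay low: Ptprc, the pan-leukocyte phosphatase CD45, averaged 4.07 ± 0.04, and the T cell receptor chains Cd3e, Cd3g and Cd3d averaged 4.86 ± 0.08, 5.64 ± 0.10 and 6.12 ± 0.06. Pecam1 (6.21 ± 0.05), Cdh5 (6.50 ± 0.16) and Kdr (5.28 ± 0.10) of endothelium, and Pdgfra (4.66 ± 0.04), Lum (4.40 ± 0.08) and Col1a2 (4.79 ± 0.04) of fibroblasts, were likewise under the level in every array. The leukocyte genes above it were Cd4 (7.13 ± 0.12), Cd68 (7.32 ± 0.27), Csf1r (6.93 ± 0.12) and Lyz2. Lyz2, lysozyme of macrophages, was bright at 11.63, 12.30, 12.26 and 11.95, but its near-identical relative Lyz1 of Paneth cells can share its probes. The probe set of Lyz1 itself read 6.90, 7.34, 7.39 and 7.37. The part of Lyz1 in the Lyz2 signal was not tested. The single genes above the reference level in the last 3 lists were Flt1 (7.22 ± 0.26), Hand2 (7.07 ± 0.12) and Hba-a1 (8.01 ± 0.21). None of them exceeded the level with the mean of all probe sets of the gene. With the 75th percentile of the other-organ genes as the level, 8 leukocyte, 5 fibroblast, 3 endothelial and 2 neuronal genes exceeded it. The 3 genes of the fibroblast and smooth muscle list above the reference level were Fn1, Acta2 and Col1a1. Fn1, a matrix protein that epithelium can also make, averaged 10.66 ± 0.09, and the smooth muscle actin Acta2 read 8.71, 8.00, 8.28 and 7.70. The levels of Col1a1 are given below.

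A few of the fibroblast genes were uneven between arrays. Col3a1 read 5.56, 6.21, 8.26 and 5.48, Col1a1 read 7.52, 7.91, 8.59 and 7.72, and Sparc read 7.00, 7.10, 7.99 and 6.65. Col1a1 thus exceeded the reference level in every array, Sparc in all but array 4 and Col3a1 only in array 3. Array 3 was the highest for these 3 genes and for 10 of 17 members, where array 3 was the highest for 23.6% of all genes. Pdgfra and the matrix genes Lum and Col1a2 were nearly level: their ranges over the 4 arrays were 4.60 to 4.70, 4.35 to 4.52 and 4.76 to 4.85. These ranges lie under the other-organ median of 5.34, where differences between arrays may not show. The part of stromal RNA in the differences between arrays was not tested.

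**Figure D2:**
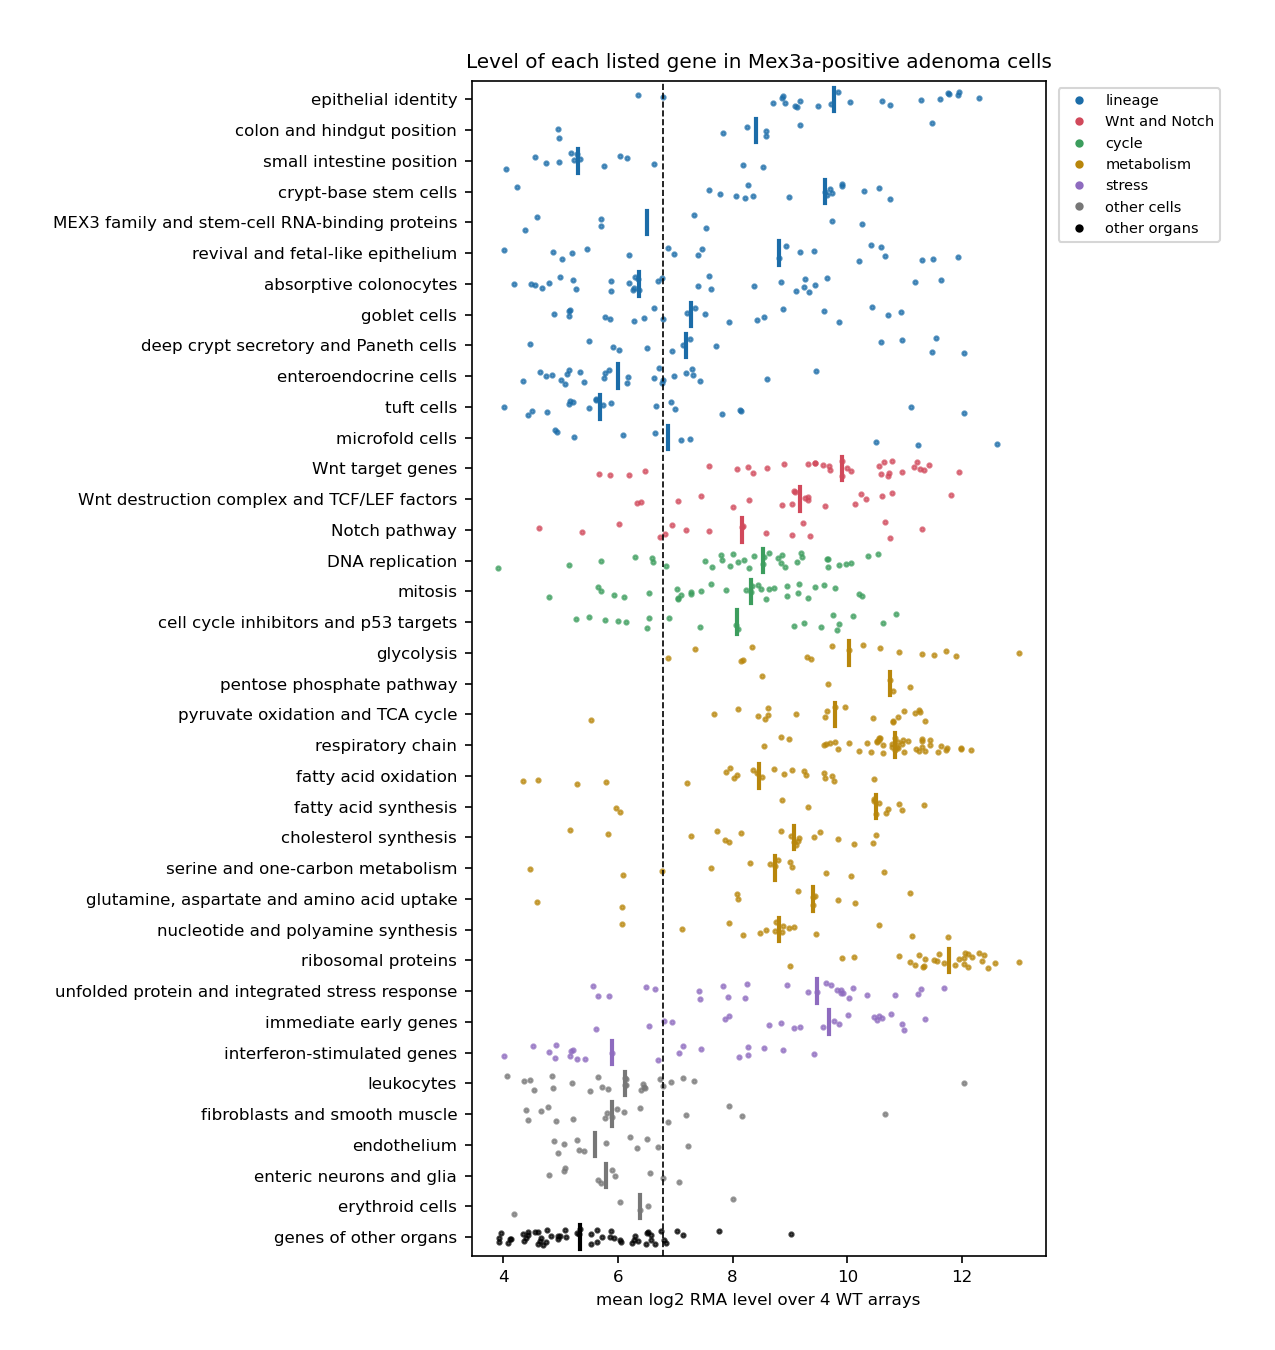
Mean log2 RMA level over the 4 WT arrays (horizontal axis) of every measured member of each gene list; points are genes, thick ticks are list medians and colours are families of lists. The dashed line is the reference level of 6.78, above which lie the medians of ribosomal, respiratory chain, Wnt target and stem cell genes and below which lie those of leukocytes, fibroblasts, endothelium, tuft and enteroendocrine cells.

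Wnt target genes were bright as a group. The 33 measured members had a median level of 9.90 (percentile 91.4), and 29 exceeded the reference level in all arrays, against 45.7% of all genes. Nkd2, Prdm6, Fgf9 and Fgf20 did not in any. Secreted and membrane inhibitors of the pathway, themselves induced by beta-catenin, were prominent. Nkd1, which binds Dishevelled, read 11.36, 10.93, 11.32 and 11.27 (11.22 ± 0.20). Notum, the secreted enzyme that strips the lipid from Wnt proteins, read 10.90, 10.54, 10.53 and 10.58 (10.64 ± 0.18). The membrane ubiquitin ligases Rnf43 and Znrf3, which remove Frizzled receptors, both averaged 9.44, with SDs of 0.11 and 0.14. Differences between arrays in these genes were small, with array 2 the lowest for Nkd1, Rnf43 and Znrf3.

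Transcription factors and cell cycle genes among the targets followed. Prox1, a homeobox factor of colon adenomas, averaged 11.33 ± 0.12. Lef1, a TCF family member, read 9.57, 9.18, 9.39 and 9.14. Sp5, a transcriptional repressor, read 9.22, 8.66, 8.72 and 8.96 (8.89 ± 0.26), and its promoter above holds CTTTGA 204 and 104 bases before the start. Ccnd1 (11.42 ± 0.16) and Ccnd2 (11.95 ± 0.13), the D-type cyclins that start the cell cycle, were at percentiles 98.7 and 99.5. Bambi, a decoy receptor of the TGF-beta family, was the target with the widest spread among these, at 7.55, 8.46, 8.07 and 8.21. CTTTGA or its reverse TCAAAG stood in 6 of 32 promoter windows of the Wnt targets (18.8%) and in 13.8% of all RefSeq promoter windows. These 32 windows covered only 20 of the 33 Wnt targets, and 5 of those genes had a match. Each window searched was the 250 bases before a start. A match describes letters only and says nothing of binding.

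The machinery that conveys the Wnt signal was expressed throughout. Of 20 measured genes of the destruction complex, TCF/LEF factors and receptors, 18 exceeded the reference level in all arrays, with a median of 9.17; Fzd5 and Fzd7 did not in any. Ctnnb1, which encodes beta-catenin, averaged 11.80 ± 0.08, Gsk3b, the kinase that marks it for destruction, 10.78 ± 0.16, and Tcf7l2, its main partner in gut epithelium, 10.61 ± 0.18. Apc read 9.22, 9.00, 9.11 and 8.97 with its brightest probe set. A 3′ array does not tell whether a transcript holds the exon between the loxP sites, so the Apc level checks nothing about recombination. Tcf7l1, a repressive TCF, read 7.40, 7.03, 7.91 and 7.48, and the Wnt coreceptor Lrp6 8.98, 8.82, 9.45 and 8.90; array 3 was the highest and array 2 the lowest for both.

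Crypt-base stem cell genes were nearly as bright as Wnt targets, many of which they are. The median of 17 members was 9.61 (percentile 89.1), and 16 exceeded the reference level in all arrays, against 45.7% of all genes. Sox9, a factor of the crypt base, was almost level at 10.57, 10.54, 10.59 and 10.53. Smoc2, a matrix protein of Lgr5-positive cells, read 10.31, 9.73, 9.89 and 9.69, and the RNA-binding protein Msi1 read 10.15, 9.29, 9.80 and 9.70. Array 1 was the highest for Lgr5, Smoc2, Msi1 and Lrig1 (8.42, 7.72, 8.18 and 7.93), and for 9 of the 16 bright members. Among the 7805 bright genes array 1 was the highest for 32.0%. Ascl2, the factor that sets the stem cell programme, did not follow that order and read 8.15, 8.34, 8.34 and 8.25. The exception to the list was Olfm4, which marks crypt-base cells of the mouse small intestine: it stayed at 4.17, 4.29, 4.14 and 4.35, percentile 3.5.

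Among MEX3 proteins and other RNA-binding proteins of stem cells, 4 of 8 (50%) exceeded the reference level in all arrays, near the 45.7% of all genes. Besides Mex3a these were Msi1, Msi2 (10.25 ± 0.12) and the oncofetal mRNA-binding protein Igf2bp3 (7.80, 7.09, 7.61 and 7.63). Mex3b (4.60 ± 0.13) stood at percentile 9.8 and Mex3c (5.40, 6.37, 5.47 and 5.58) at 33.6, both under the level in each array. The list's count rests on the probe set kept: with the most variable probe set, or with the mean of all probe sets, 2 of 8 members exceeded the level. Igf2bp1, a relative of Igf2bp3, was flat at 5.70 ± 0.03. The Mex3a promoter printed above holds TTCCCGC 234 bases and GCGGGAA 92 bases before the start.

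Genes linked to regeneration after injury and to fetal-like epithelium were divided. Of 21 measured members, 13 (61.9%) exceeded the reference level in all arrays, against 45.7% of all genes, with a median of 8.80. Clu, a secreted chaperone of revival stem cells, read 10.90, 10.13, 10.17 and 10.45. Hopx, a small homeodomain protein of reserve stem cells, read 10.65, 10.96, 10.43 and 10.31, and Krt7, a keratin of ductal epithelium, averaged 11.30 ± 0.09. Ly6e (11.94 ± 0.04) and Vim (11.50 ± 0.14) had the brightest means of the list. Anxa1, another gene of fetal-like spheroids, read 8.68, 9.43, 8.70 and 8.93. By contrast Il33, an alarmin, stayed at 5.47 ± 0.25, and the YAP target Ccn2 was under the level in all arrays while its relative Ccn1 read 9.63, 8.81, 8.92 and 9.35. Emp1 read 5.83, 6.86, 6.07 and 6.01, above the level only in array 2. Clu and Ccn1 were highest in array 1, Anxa1 and Emp1 in array 2, so the list had no common order of arrays.

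Markers of differentiated lineages were mixed. Of 31 colonocyte genes, 12 (38.7%) exceeded the reference level in all arrays, near the 45.7% of all genes, and the median was 6.37 (percentile 45.0). The chloride exchanger Slc26a3 (4.81, 5.00, 4.92 and 5.23) and the membrane-bound carbonic anhydrase Car4 (6.27, 6.29, 6.30 and 6.30), both of mature colonocytes, stayed under it in all arrays. The water channel Aqp8 lay at it, with 6.59, 6.74, 6.81 and 6.91. Car1, the cytosolic carbonic anhydrase of colonocytes, exceeded the level in 3 arrays, at 6.57, 7.49, 8.10 and 8.22. The peptide hormones of the guanylyl cyclase pathway were bright: Guca2a read 8.88, 10.19, 10.08 and 9.40, and Guca2b read 8.77, 9.70, 9.53 and 9.02. Both were lowest in array 1 and highest in array 2. The adhesion protein Ceacam1 (11.64 ± 0.31) and the membrane mucin Muc13 (11.19 ± 0.33) were at percentiles 99.1 and 98.1.

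Goblet cell genes ranged from bright to dim. Of 22 members, 12 (54.5%) exceeded the reference level in all arrays, near the 45.7% of all genes, and the median was 7.27. Tff3, the trefoil peptide of goblet cells, read 8.96, 11.15, 10.75 and 10.88, a 4.57-fold range with array 1 alone low. Spink4, a secreted protease inhibitor, read 10.12, 11.43, 11.30 and 10.92, and the mucus protein Fcgbp read 8.41, 9.15, 9.11 and 8.84. The disulfide isomerase Agr2 read 9.27, 9.93, 9.93 and 9.25. Among factors of the lineage, Foxa3 averaged 10.71 ± 0.14 and Spdef read 6.95, 7.50, 7.70 and 7.21. Atoh1, the master switch of secretory fate, read 6.45, 7.27, 6.70 and 6.09, above the level only in array 2. The lectin Zg16 (5.16 ± 0.02) and the mucus-processing protease Clca1 (4.54, 4.79, 5.98 and 5.36) stayed under it. Median deviation from the gene's own mean was -0.13, 0.16, 0.10 and -0.12 for the 22 genes, so arrays 2 and 3 sat above arrays 1 and 4.

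Deep crypt secretory and Paneth cell genes likewise ranged from bright to dim. Reg4, the marker of deep crypt secretory cells of the colon, read 11.10, 11.94, 11.86 and 11.32. The matrix protease Mmp7 was bright and even at 10.95 ± 0.14, and the lectin Itln1 read 11.20, 10.14, 10.68 and 10.34, with array 1 the highest. The stress-responsive Nupr1 averaged 11.48 ± 0.17. Lyz1 was just over the level at 6.90, 7.34, 7.39 and 7.37. The alpha-defensin Defa21 ranged from 5.76 to 8.81 and was highest in array 3, an 8.30-fold range, whereas Defa31 stayed within 7.48 to 7.97. These defensins belong to a family of near-identical genes that probes may not separate. In all, 7 of 14 members (50%) exceeded the reference level in all arrays, near the 45.7% of all genes. The Notch ligands Dll1 (6.01 ± 0.10) and Dll4 (6.73, 7.02, 7.33 and 6.67), which secretory cells present to their neighbours, were under the level in all arrays and in arrays 1 and 4, respectively.

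Enteroendocrine and tuft cell genes were the dimmest lists among the cell lineages of the colonic epithelium. Of 26 enteroendocrine genes 7 exceeded the reference level in all arrays, against 45.7% of all genes, and the median was 6.00. Peptide YY, Pyy, a hormone of colonic L cells, was the brightest at 9.01, 10.22, 9.46 and 9.10. Isl1, a factor of endocrine cells, read 7.62, 9.04, 9.28 and 8.47, and its second probe set kept array 1 lowest (6.83, 8.58, 8.24 and 7.70). Chgb, a granin of hormone granules, read 7.49, 7.49, 6.80 and 7.41. The endocrine switch Neurog3 (5.15 ± 0.04), glucagon (Gcg, 4.65 ± 0.03), tachykinin (Tac1, 5.34 ± 0.08) and the serotonin-making enzyme Tph1 (5.59, 5.54, 5.75 and 6.21) were under it in each array. With the 95th percentile of the other-organ genes as the level, 3 enteroendocrine genes exceeded it. Of 20 tuft cell genes 5 exceeded the level in all arrays, or 8 with the 75th percentile. These were Cd24a (12.04 ± 0.05), Avil (11.11 ± 0.08), Plcg2 (8.15 ± 0.12), Ptpn6 (8.12 ± 0.11) and Tas1r3 (7.81 ± 0.15). The defining tuft genes did not: Dclk1 averaged 5.63 ± 0.04, the lineage factor Pou2f3 5.61 ± 0.15, the cation channel Trpm5 5.17 ± 0.10 and the cytokine Il25 5.22 ± 0.13. In the microfold cell list 5 of 10 members (50%) exceeded the level, led by Pglyrp1 (12.60 ± 0.08), near the 45.7% of all genes. With the mean of all probe sets 3 did. The defining Gp2 (4.90 ± 0.12) and Spib (4.94 ± 0.07) lay under the level.

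**Figure D3:**
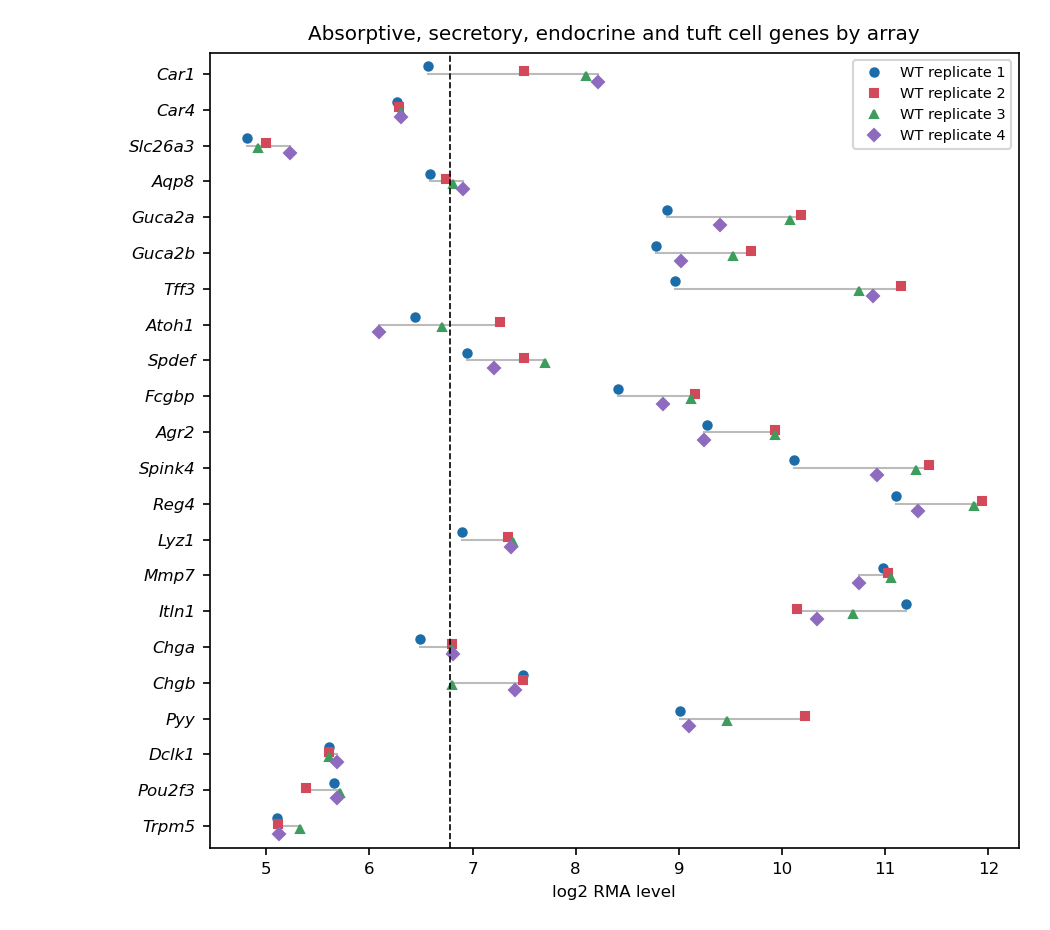
Log2 RMA level (horizontal axis) of 22 genes of absorptive, goblet, deep crypt secretory, enteroendocrine and tuft cells in each WT array, 1 symbol per array; grey bars span the arrays and the dashed line is the reference level of 6.78. Array 1 is lowest for Tff3, Spink4, Fcgbp, Reg4, Guca2a, Guca2b and Pyy and highest for Itln1, and Slc26a3, Dclk1, Pou2f3 and Trpm5 stay left of the line.

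Notch pathway genes were present in part. Of 17 members, 10 (58.8%) exceeded the reference level in all arrays, against 45.7% of all genes, with a median of 8.16. The receptors Notch1 (10.65 ± 0.11) and Notch2 (9.23 ± 0.22) and the receptor-cleaving protease Adam10 (10.74 ± 0.13) were bright. The ligand Jag1 read 8.28, 8.05, 8.52 and 7.89. Among effectors, Hes1, which represses Atoh1, was even at 8.26, 8.19, 8.12 and 8.06. Hes5 averaged 4.62 ± 0.06, under the level in all arrays. The brightest member of the list, Hes6 (11.30 ± 0.13), is not counted among the effectors here.

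Cell cycle genes were expressed in both their replication and their division programme. Of 35 DNA replication genes 28 exceeded the reference level in all arrays, with a median of 8.53, and of 33 mitosis genes 27 did, with a median of 8.32. Over all genes 45.7% did. The 6 subunits of the MCM helicase, which opens the DNA at origins, lay between 7.80 (Mcm6) and 10.53 (Mcm5) on average. Pcna, the sliding clamp, read 10.32, 10.53, 10.35 and 10.26, and thymidylate synthase, Tyms, 10.06 ± 0.08. In mitosis the proliferation antigen Mki67 read 9.03, 9.54, 8.93 and 9.14. Cdk1, the mitotic kinase, averaged 9.59 ± 0.07, its cyclin Ccnb2 8.43 ± 0.10, and cyclin A2, Ccna2, 10.26 ± 0.07. The ubiquitin-conjugating enzyme Ube2c of the anaphase complex read 10.13, 9.97, 10.37 and 10.36, and the anaphase activator Cdc20 read 9.55, 9.72, 9.86 and 10.00. Cdc6, Cdc45 and Fen1 of the replication list and Bub1, Nusap1 and Anln of the mitosis list were among those under the level in all arrays; they were named after their values were seen.

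The replication and mitosis lists differed in which array was high. Among the 28 bright replication genes array 3 was the highest for 15 and array 2 for 11, array 1 for 2 and array 4 for none. Among all 7805 bright genes the corresponding shares were 24.9%, 32.7%, 32.0% and 8.39%. Array 4 was thus the highest for few bright genes of any kind, and it was the lowest for 35.6% of them. Mcm5 (10.22, 10.57, 10.85 and 10.47), Mcm3 (9.05, 9.13, 9.45 and 9.12) and Mcm6 (7.72, 7.81, 8.12 and 7.55) were each highest in array 3. For the 27 bright mitosis genes the highest array was array 2 for 10, array 4 for 7, array 3 for 6 and array 1 for 4. Cdc20 and Aurka (8.39, 8.20, 8.32 and 8.43) were highest in array 4.

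Both lists were also described by letters in their promoters. Promoter windows were at hand for 28 of 35 replication genes and 28 of 33 mitosis genes. TTCCCGC or TTGGCGC on either strand stood in 11 of 33 windows of replication genes (33.3%), in 3 of 30 of mitosis genes (10.0%) and in 5.62% of all windows. In Mcm6 the matches lie 109 and 46 bases before the start, as printed above. CCAAT, the letters bound by NF-Y, stood in 23 of 30 windows of mitosis genes (76.7%), 19 of 33 of replication genes (57.6%) and 33.8% of all windows. These windows hold only the 250 bases before a start and can overlap for genes with several starts, and some motif letters can lie within other motifs.

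Genes that restrain the cycle stood beside those that drive it. Cdkn1a, which encodes p21, was even at 10.88, 10.87, 10.81 and 10.84 (10.85 ± 0.03, percentile 96.8). Cdkn1b, p27, averaged 9.75 ± 0.16, and Cdkn1c, p57, read 10.67, 10.05, 9.83 and 9.87. The antiproliferative factor Btg1 averaged 10.62 ± 0.11. The INK4 inhibitors Cdkn2a (5.50 ± 0.12), Cdkn2c (6.54 ± 0.21) and Cdkn2d (5.27 ± 0.11) were under the reference level in all arrays, as was Rb1 (5.78 ± 0.11). Array 1 was the highest for 14 of the 20 inhibitors and p53 targets, against 22.2% of all genes, and for 9 of the 12 bright ones, against 32.0% of bright genes. Gadd45a read 8.68, 7.98, 7.80 and 7.79, and Ccng1, a p53 target, 10.13, 9.14, 9.45 and 9.43. The median deviation was 0.14, -0.05, -0.03 and -0.04. Array 1 was the highest for Cdkn1c, Gadd45a and Ccng1 and, by a far smaller margin, for the p53 target Cdkn1a.

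Ribosomal protein and respiratory chain genes had the highest medians of the lists. All 28 ribosomal protein genes measured (median 11.78, percentile 99.3) and all 45 respiratory chain genes (median 10.84, percentile 96.8) exceeded the reference level in all arrays. Atp5a1, a catalytic subunit of ATP synthase, averaged 12.16 ± 0.07, Cox7a2 11.99 ± 0.04 and Cox5b 11.98 ± 0.10. Of the complex I genes, Ndufv1 averaged 11.45 ± 0.07 and Ndufs1 8.84 ± 0.06. These lists were also even: the median SD was 0.058 for ribosomal and 0.095 for respiratory chain genes, against 0.121 over all genes. Uqcrb of complex III was the exception, at 8.70, 9.10, 8.05 and 8.31. Of 21 genes of pyruvate oxidation and the TCA cycle 20 exceeded the level, with a median of 9.78. Citrate synthase, Cs, averaged 11.25 ± 0.06 and malate dehydrogenase, Mdh2, 11.35 ± 0.13.

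Genes of sugar use were bright too. Of 17 glycolysis genes 16 exceeded the reference level in all arrays (median 10.02), and all 5 of the pentose phosphate pathway did (median 10.74). Gapdh averaged 13.00 ± 0.03, Ldha, which makes lactate, 11.90 ± 0.04, and Aldoa 11.72 ± 0.10. The glucose transporter Slc2a1 read 10.67, 10.13, 10.24 and 10.05. The lactate carrier Slc16a1 read 7.09, 7.08, 6.98 and 6.35, under the level in array 4. Hexokinase Hk1 averaged 9.74 ± 0.10 and Hk2 8.34 ± 0.19. Transketolase, Tkt, read 10.99, 11.33, 11.05 and 11.02.

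Array 2 was the highest for most genes of mitochondrial and sugar metabolism. That held for 29 of 45 respiratory chain genes, 13 of the 20 bright TCA cycle genes and 11 of the 16 bright glycolysis genes, where array 2 was the highest for 32.7% of all bright genes. The shifts were small: the median deviation of array 2 was 0.10 for the respiratory chain, 0.15 for the TCA cycle and 0.12 for glycolysis, on the log2 scale. Pdha1, a subunit of pyruvate dehydrogenase, read 9.64, 10.04, 9.68 and 9.76, and Pfkp, a phosphofructokinase, 9.81, 10.29, 9.95 and 10.04. Array 2 was also the highest for 15 of 28 ribosomal protein genes. Array 2 was the only array with Y-linked signal: Eif2s3y read 4.20, 8.92, 4.24 and 4.17 and Kdm5d 4.71, 7.54, 4.88 and 4.88, while Xist read 11.28, 6.89, 11.08 and 11.22. Uty read 4.31, 5.95, 4.48 and 4.48. The part of sex in the differences between array 2 and the others was not tested.

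Genes of both fatty acid synthesis and oxidation were mostly above the reference level. Of 13 fatty acid synthesis genes 11 exceeded the reference level in all arrays, with a median of 10.50. Fasn, the fatty acid synthase, read 10.37, 10.34, 10.67 and 10.46, and Acly, which makes cytosolic acetyl-CoA, averaged 10.47 ± 0.11. The desaturases Scd1 (10.55 ± 0.23) and Fads2 (10.95 ± 0.19) and the elongase Elovl5 (11.34 ± 0.11) were at percentiles from 95.4 to 98.5. Of 22 oxidation genes 18 exceeded the level, with a median of 8.47. Cpt1a, the gate of mitochondrial import, read 8.27, 7.85, 7.93 and 7.75, and the medium-chain dehydrogenase Acadm 8.44, 8.68, 8.24 and 8.03. Ppara, the nuclear receptor that induces oxidation, was under the level in all arrays; it was named after its value was seen. Array 4 was the lowest for 16 of 22 oxidation genes, against 22.6% of all genes, and for 13 of the 18 bright ones, against 35.6% of bright genes.

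Of 19 cholesterol synthesis genes 17 exceeded the reference level in all arrays, with a median of 9.07. Cyp51 was even at 10.51 ± 0.04, and Sqle, the squalene epoxidase, averaged 8.83 ± 0.07. Hmgcs1, an early step, was under the level at 5.20, 5.01, 5.26 and 5.20. Insig1, which holds the sterol sensor in the endoplasmic reticulum, read 10.43, 9.88, 10.82 and 10.66. Array 3 was the highest for 10 of the 17 bright cholesterol genes and 7 of the 11 bright fatty acid synthesis genes, against 24.9% of bright genes, and array 2 was the lowest for 7 of the latter, against 23.5%. The median deviation of array 2 for fatty acid synthesis, -0.12, turned to 0.02 when the most variable probe set was kept per gene. Insig1, Fads2 and the citrate carrier Slc25a1 (10.70, 10.42, 10.92 and 10.64) shared that order.

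The supply of amino acids and nucleotides was covered as well. Of 13 genes of serine and one-carbon metabolism 10 exceeded the reference level in all arrays, of 11 of glutamine and amino acid uptake 9, and of 16 of nucleotide and polyamine synthesis 15. Phgdh, which starts serine synthesis, averaged 8.78 ± 0.13, Psat1 9.01 ± 0.06, and Shmt2, the mitochondrial serine hydroxymethyltransferase, 8.74 ± 0.20. Mthfd1 averaged 9.03 ± 0.04. Aspartate aminotransferase, Got2, averaged 11.10 ± 0.11, and the amino acid transporter chain Slc3a2 9.84 ± 0.20. In nucleotide synthesis Nme2 (11.75 ± 0.03) and Paics (10.54 ± 0.07) were bright, and Cad, the enzyme that starts pyrimidines, read 8.47, 8.59, 9.24 and 8.73. Array 3 was the highest for 7 of the 10 bright serine and one-carbon genes, against 24.9% of bright genes.

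Stress programmes ranged from strong to weak. Immediate early genes, which respond within minutes to growth factors and also to cell handling, were bright: 18 of 22 exceeded the reference level in all arrays, with a median of 9.67. Fos read 10.95, 10.63, 10.57 and 10.88, Egr1 10.75, 10.70, 10.35 and 10.65, and Atf3 11.57, 10.90, 11.39 and 11.58. Fosb read 10.25, 9.32, 10.06 and 10.39. Adenomas were digested with collagenase and sorted before lysis, and no array of undigested tissue was analysed here, so the part of handling in these levels was not tested. The median deviation of the list was 0.18, -0.11, -0.03 and 0.07. Of 27 genes of the responses to unfolded proteins and translational stress 22 exceeded the level, with a median of 9.46. The chaperones Hsp90b1 (11.69 ± 0.06) and Hspa5 (9.87, 9.80, 9.45 and 9.41) and the factors Atf4 (9.72 ± 0.14) and Xbp1 (8.95 ± 0.13) were among them, and Atf6 (5.56 ± 0.15) was not.

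Several interferon-stimulated genes differed between arrays in a common order. Of 21 members 8 (38.1%) exceeded the reference level in all arrays, near the 45.7% of all genes, and the median was 5.90. Ifit1 (4.92 ± 0.14) and Ifit2 (4.52 ± 0.16) lay far under it. Igtp, a GTPase induced by interferon-gamma, read 9.01, 7.43, 7.90 and 8.08. Ddx58, which encodes the RNA sensor RIG-I, read 10.13, 8.87, 9.34 and 9.34. The interferon signal transducers Stat2 (8.78, 8.02, 8.20 and 8.10) and Irf9 (9.38, 8.60, 8.74 and 8.78) had the same top and bottom array. Array 1 was the highest for 14 of 21 members, against 22.2% of all genes, and for 7 of the 8 bright ones, against 32.0%. Array 2 was the lowest for 6 of those 8, against 23.5%. The median deviation of array 1 was 0.19 over the list and 0.51 over its 8 bright members. The MHC class II chaperone Cd74, chosen after its values were seen, had the same top and bottom array at 9.20, 7.63, 8.17 and 7.81. Of the leukocyte list, in which Ptprc and Cd3e lay under the level, 17 of 25 members were lowest in array 1, against 32.2% of all genes. Of those 25 members 19 exceeded the level in no array. The dim panel of other-organ genes was likewise most often lowest in array 1, for 27 of 55 members. The order of the leukocyte list thus cannot be told apart from a shift of background signal. The part of leukocyte RNA in the order of the interferon-stimulated genes was not tested.

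Among the genes of largest spread, many likewise had array 1 as the highest and array 2 as the lowest. Apart from Xist, the widest was H2-Q5, a class Ib MHC gene, at 10.39, 6.88, 8.77 and 8.78. Its relative H2-Q4 read 10.69, 8.17, 9.16 and 9.22. Both were highest in array 1 and lowest in array 2, as were Igtp and Ddx58, with the caveat that H2-Q genes are similar enough to share probes. The kept probe set of Phf20l1 had the same order at 11.92, 9.66, 10.98 and 10.99, but the other 4 probe sets of that gene were dimmer, with means from 4.68 to 8.24, and did not follow it. Cxcl14, a chemokine, read 8.93, 6.76, 6.86 and 7.28, the peroxidase Gpx3 8.72, 6.49, 6.91 and 6.91, and complement factor I, Cfi, 9.71, 8.36, 8.21 and 7.42. Array 1 stood above the other 3 arrays for each of these 3. The reverse, array 1 alone low, held for Tff3, for Hoxd13 and for the protease inhibitor Spink1 (6.27, 8.29, 8.19 and 8.52). Alb, the liver albumin among the genes of other organs, was unlike the rest of that panel at 10.05, 8.84, 8.37 and 8.79, highest in array 1.

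**Figure D4:**
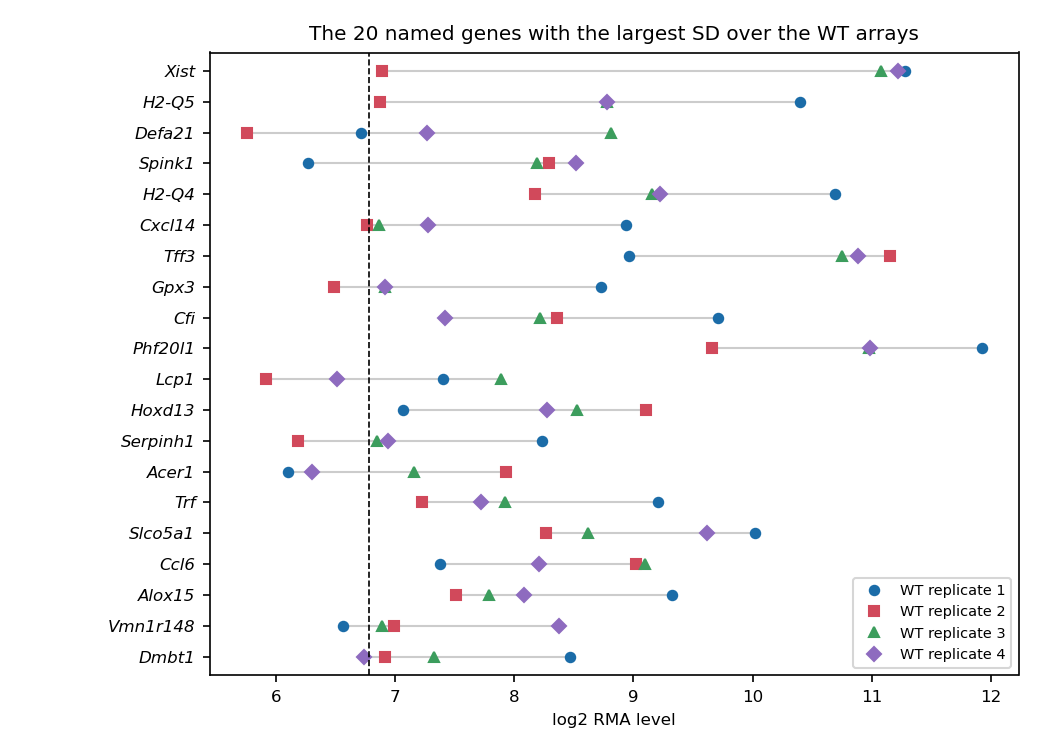
Log2 RMA level (horizontal axis) in each WT array of the 20 named genes with the largest SD among genes whose mean exceeds the reference level of 6.78 (dashed line). Symbols are arrays and grey bars span them; array 1 is the highest for H2-Q5, H2-Q4, Cxcl14, Gpx3, Cfi and Phf20l1 and the lowest for Tff3, Hoxd13 and Spink1, and array 2 alone is low for Xist.

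The median deviations of most lists were far smaller than the differences in those single genes, which were picked for large spread. A list median also evens out its members, so these measures are not alike. Apart from the sex-linked genes, the widest list was the colon and hindgut position list, whose median deviations were -0.26, 0.21, 0.17 and 0.00 over 8 genes. Wnt targets stayed within -0.05 and 0.03, and crypt-base stem cell genes within -0.06 and 0.05. Opposite shifts of members cancel in these medians. The median SD per gene was 0.142 for Wnt targets and 0.189 for crypt-base stem cell genes, against 0.121 over all genes. The panel of other-organ genes, which holds mostly background signal, had median deviations of -0.05, -0.02, 0.01 and 0.05. Array 4 was the highest for 31 of its 55 members, against 26.3% of all genes, and array 1 the lowest for 27, against 32.2%. In this dim panel array 4 was thus most often the highest, whereas among bright genes it was most often the lowest. The enteroendocrine (-0.11, 0.00, 0.01 and 0.08) and erythroid lists (-0.12, -0.09, 0.02 and 0.18), made mostly of dim genes, had the same highest and lowest array as that panel. So did the leukocyte list. The deviations of these lists cannot be told apart from a shift of background signal.

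**Figure D5:**
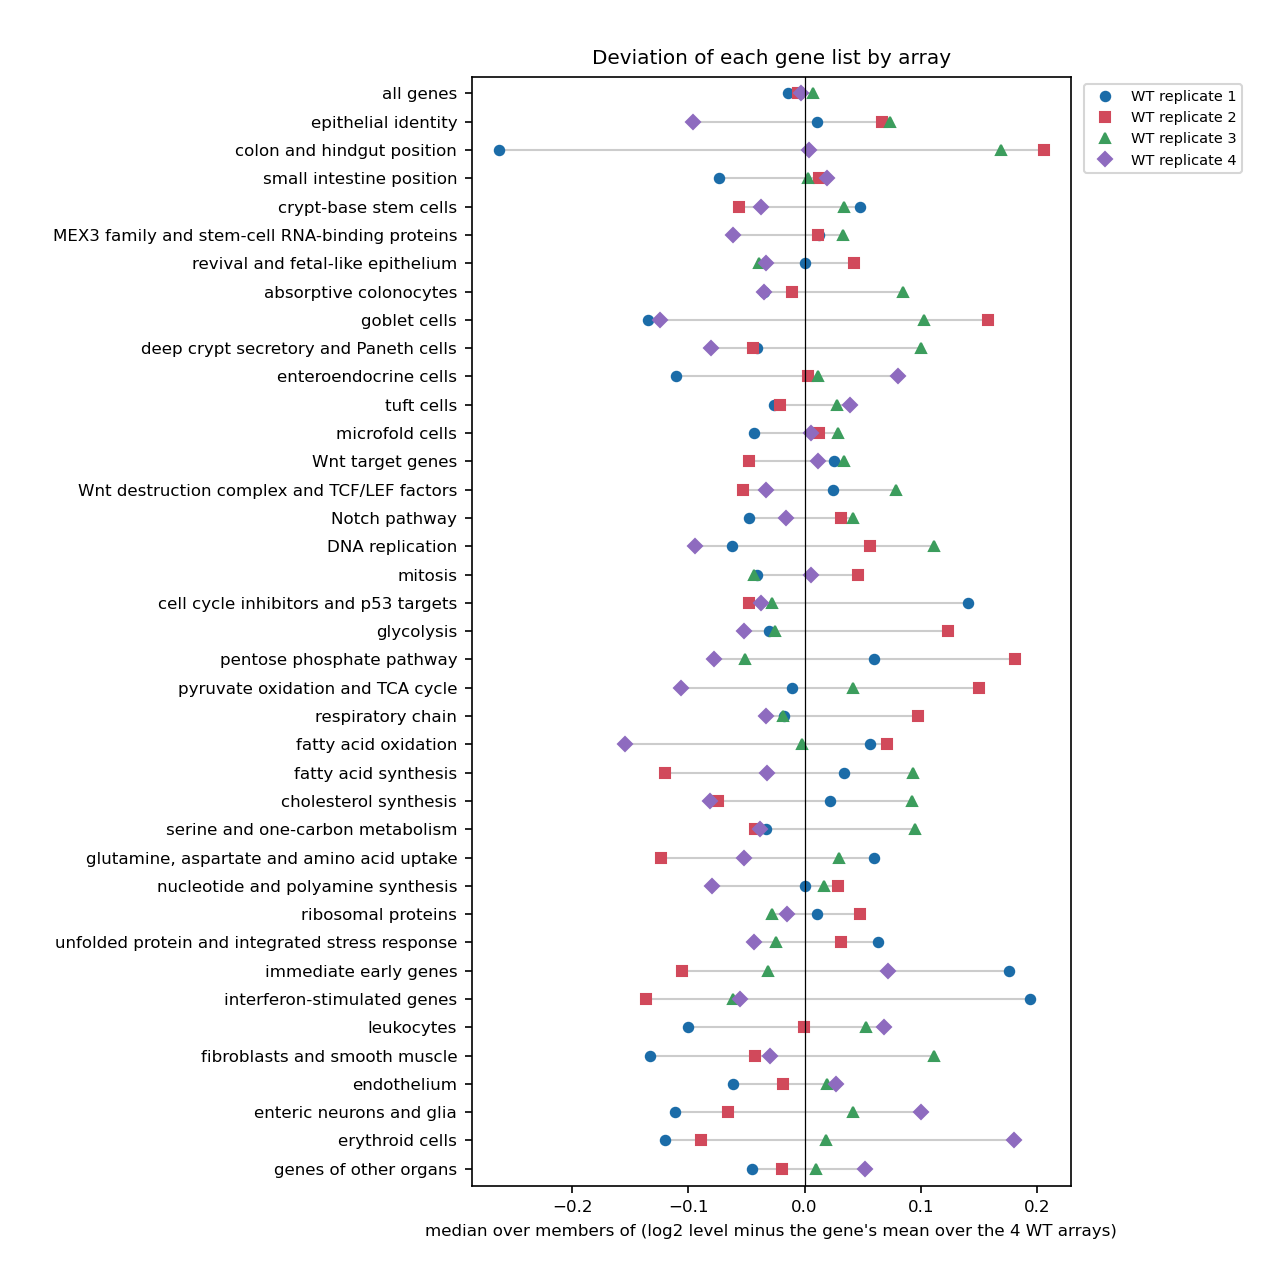
Median over the members of each gene list of the log2 level minus the gene's own mean over the 4 WT arrays (horizontal axis), 1 symbol per array, with all genes in the top row. Array 2 is the highest for glycolysis, the TCA cycle and the respiratory chain, array 1 for interferon-stimulated, immediate early and cell cycle inhibitor genes, and the position list has the widest spread.

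Scan batch, the technical label that splits the WT arrays into 2 and 2, was tested with limma over 12822 genes, those left after the lowest 25% by mean were set aside. At an adjusted p under 0.05 no gene differed (0 of 12822, 0%), the lowest adjusted p being 0.325. In simulated data with 200 changed genes, the fit recovered 4.67% of changes of 0.5 log2 units and 59.7% of changes of 1. The absence of calls thus does not show that the batches are alike. At an unadjusted limma p under 0.05 there were 1708 genes (13.3%), where 641 would be expected by chance, of which 650 were higher and 1058 lower in scan batch 2. That count was 971 without array 3 and 789 without array 4. The fit had 2 residual degrees of freedom and a median standard error of 0.117. The genes of smallest p were Usp14, a proteasome-bound deubiquitinase, lower in batch 2 by -0.81 ± 0.10 (standard error), and Tsks, higher by 0.63 ± 0.09, and both missed the limma threshold with an adjusted p of 0.325. For a list or a gene alone, an exact permutation test of 2 against 2 arrays cannot give a two-sided p below 0.33, so no list was tested between batches. Arrays 3 and 4 were the most alike pair, with 23 genes more than 1 log2 unit apart against 110 between arrays 1 and 2. By the median absolute difference over genes, arrays 3 and 4 (0.099) and arrays 1 and 2 (0.115) were the closest pairs. Pairs across scan batches had values from 0.124 to 0.156.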

How the data were processed

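Values were read from the deposited table, which holds log2 levels of 45141 probe sets made by the authors with RMA, per the submitters' processing notes; its version and settings are not given in these sources. RMA equalises arrays, which can hide a shift common to all genes. Probe sets were named through the platform annotation: 28898 carried 1 gene symbol, 551 several and 15588 none, with 104 controls set aside. Of the 39 lists' 875 names, 761 were measured in this way and 113 were not analysed here; the remaining name is an older symbol of another. The members and lists were chosen with earlier results of these data known. Named were the 4 markers, the first 8 members of each list, its 3 brightest and 3 most variable members, all bright members of lists of other and rare cells, the 20 brightest and 20 most variable genes, the 5 of smallest p per direction between scan batches, and sex-linked genes. Where 5 or fewer members failed or met the reference level, or a gene illustrates a list's exceptions, further genes were named after their values were seen.

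Scan batches were compared with limma 3.58.1 (lmFit, eBayes with trend, Benjamini-Hochberg adjustment) in R 4.3.3, tested on simulated data; other steps used pandas 2.3.3. Alternatives were other rules for the probe set kept, centring, other reference levels, left-out arrays and filters. The number of arrays limits the precision. Motifs were searched in RefSeq promoter windows of GRCm38.p6.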

Additional observations from a re-analysis of the deposited data

Results flagged for a closer look

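In 4 of 37 gene lists and 26 of 252 named genes, the value of a WT array lay far from those of the other 3 relative to their range. Over all genes this held for 1563 (9.14%), where about 1 in 20 would be expected by chance under normal spread, so a case on its own carries little weight, and none was tested further.

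For lists, the median deviation was 0.1407 for cell cycle inhibitors and p53 targets in array 1, 0.1238 for glycolysis and 0.0979 for the respiratory chain in array 2, and 0.0950 for serine and one-carbon metabolism in array 3. Array 2 also stood apart for the sex-linked genes, with log2 levels of 8.92 for Eif2s3y, 7.54 for Kdm5d, 5.95 for Uty and 6.89 for Xist. Further genes apart in array 2 were Tkt (11.33), Cox7a2 (12.05) and Fgf20 (5.99).

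Array 1 was apart and high for Notum (10.90), Nupr1 (11.74), Il33 (5.85) and Actb (13.27). It was apart and low for Spink1 (6.27), Lyz1 (6.90), Cd3d (6.03), Cd3g (5.50), Pecam1 (6.14), Fzd5 (6.17) and Anln (5.96). Array 3 was apart for Chgb (6.80), Trpm5 (5.32) and Pdx1 (5.34), and array 4 for Slc16a1 (6.35), Hk2 (8.06), Cdk1 (9.70), Apoa4 (6.24) and Dclk1 (5.69). Several of these gaps are under 0.1 on the log2 scale, as for Dclk1, Actb and Pecam1, where the other 3 arrays were almost equal.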

How the results depend on the processing

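Recomputed were 527 counts of members above the reference level, list deviations and scan batch counts. Of these, 504 kept their value within 1.5 times or within 1 SD between arrays, 21 moved and 2 changed sign. With any WT array left out, each value that was recomputed stayed within those bounds. The deviation of an array was not recomputed with that same array left out. Scan batch counts at an adjusted p under 0.05 were 0 in every setting of the limma fit. Keeping the most variable probe set gave 2 RNA-binding protein genes and 0 each of endothelium, neurons and erythroid cells, and it turned the deviation of array 2 for fatty acid synthesis to 0.0237. The mean of all probe sets gave 1 small intestine, 2 RNA-binding protein and 3 microfold cell genes and 0 each of endothelium, neurons and erythroid cells, and a deviation of array 2 for glutamine and amino acid genes of -0.0307. The 75th percentile of the other-organ genes as the level gave 8 tuft cell, 8 leukocyte, 5 fibroblast, 3 endothelial and 2 neuronal genes. The 95th gave 3 enteroendocrine and 1 leukocyte gene and 0 each of endothelium and neurons. Over members above the level alone, the deviation of array 1 became 0.5051 for interferon-stimulated genes and 0.1153 for fibroblast genes; the latter rests on 3 genes. The cause of the other changes was not tested, though each choice changes which probe sets or members are read. Of 252 mean levels of named genes, 98 moved by more than 1 SD when all probe sets were averaged and 56 when the most variable was kept. No alternative of the scan batch fit called a gene, with 789 to 2233 at an unadjusted limma p under 0.05; the lowest of these counts came without array 4 (789) and without array 3 (971), against 1708 with all arrays. No paired analysis was possible because the labels give the arrays no shared replicate numbers. Brightness near the level of other-organ genes cannot separate weak expression from background.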

Other observations

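The 20 brightest named genes of the WT arrays were mostly housekeeping, led by Actb (13.23 ± 0.03 on the log2 scale, n = 4), Gapdh, Rps2 and Eef1a1 (12.95 ± 0.02). Among them were a few genes of barrier and defence. Sprr2a1, a small proline-rich protein of the cornified envelope, read 12.35, 12.81, 12.90 and 12.81 in arrays 1 to 4, with array 1 the lowest. Pglyrp1, a peptidoglycan recognition protein, read 12.71, 12.52, 12.58 and 12.60, and Ifitm3, an interferon-induced membrane protein, averaged 12.51 ± 0.06. Spock2 (12.75 ± 0.02), Ramp2 (12.53 ± 0.08) and the histone demethylase Kdm1a (12.43 ± 0.05) also ranked there by their kept probe sets; other probe sets of these genes were dimmer, at 10.55 for Spock2, 11.46 and 6.00 for Ramp2 and 9.59 for Kdm1a.

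Further genes of large spread had array 1 as the highest. The iron carrier Trf read 9.21, 7.23, 7.92 and 7.72, the collagen chaperone Serpinh1 8.23, 6.18, 6.85 and 6.94, and the lipoxygenase Alox15 9.33, 7.51, 7.79 and 8.08. The ceramidase Acer1 was instead highest in array 2, at 6.10, 7.93, 7.16 and 6.30, and the actin-bundling Lcp1 in array 3, at 7.41, 5.92, 7.89 and 6.51.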
